A study of Mus musculus with 8 samples.

Results

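The enzymes of the methionine cycle and of methyl transfer were followed in primary cultures of mouse hepatocytes, the liver's metabolic cells, kept with or without ethanol. Methionine is activated to S-adenosylmethionine (SAM), the donor in most cellular methylation reactions, and SAM is turned by methyltransferases into S-adenosylhomocysteine. That product is hydrolysed to homocysteine, which is either remethylated to methionine or passed through transsulfuration to cysteine. The liver carries most of this traffic in mammals, and alcohol exposure is known to disturb it.

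The set was defined by gene symbol and not by a cut on any measured value, though it was chosen with earlier results of these data known. It lists 9 genes: Mat1a and Mat2a for SAM synthesis, Gnmt and Pemt for methyl transfer, Ahcy for hydrolysis, Bhmt and Bhmt2 for remethylation, and Cbs and Cth for transsulfuration. In the annotation table of the array platform 8 of them have a probe set of their own name, 10 probe sets in all out of 45101, covering 8 of 18194 genes with a single-symbol probe set. Mat2a was not analysed here. All 10 probe sets had a usable value on every array and entered the tests. Where a gene has a pair of probe sets, the one with the higher mean leads.

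The cells came from mice that were wild-type (WT) or lacked transglutaminase 2 (KO), a protein-crosslinking enzyme encoded by Tgm2, all of the background C57BL6/129SVJ. They were kept for 15 h with 0 or 100 mM ethanol, which gives 4 groups: untreated WT, ethanol WT, untreated KO and ethanol KO. Each group has 2 arrays, A and B, and each array is a 1-colour measurement of biotin-labelled RNA from 1 sample. The design sets ethanol against no ethanol in each genotype and KO against WT at each ethanol level. The labels give no age and no account of which stretch of Tgm2 was deleted. Separate animals or cultures behind A and B are not stated either, so a p-value here covers the spread between samples alone, and that spread may be technical. The labels disagree about the B arrays of the ethanol groups, which their treatment text describes as control incubations and their titles as 100 mM. Groups follow the titles, and results that change otherwise are given beside the values.

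Tgm2 itself was far lower on the KO arrays (368 to 704) than on the WT arrays (16656 to 16836), where it lay at the top of the measured range. The deposited arrays differed in brightness, with trimmed means of 98.4 to 103 on untreated KO A, untreated KO B and ethanol KO A and of 199 to 297 on the remaining 5. Intensities were therefore quantile normalised, and all levels below are normalised intensities unless called deposited. The bioC spike-in control stood to the bioB control at a ratio of 1.06 to 1.28 on untreated WT A, ethanol WT A and ethanol KO A and 2.75 to 3.14 on the remaining 5. For the control transcript Pcx the 3′ over 5′ signal, a measure of how completely RNA was copied, was 26.7 and 44.5 in ethanol WT and 4.91 to 16.8 on the other arrays. Of 8 hepatocyte markers 7 were measured, none at 0, with a summed intensity of 61619 to 69281 over the 8 arrays. The summed level of 7 measured macrophage markers was 1077 to 1202 on the WT arrays, 1628 to 1701 in untreated KO and 2151 to 2483 in ethanol KO. Most of the list did not follow this sum: of 6 tested macrophage markers, Cd68 was higher in untreated KO (1.5) and Csf1r, Lyz2 and Marco were lower, with a median of -0.55. The sum of 4 measured cholangiocyte markers was 312 to 460 on the WT arrays and 768 to 1118 on the KO arrays. Of the 2 tested, Sox9 was higher in untreated KO (1.66) and Epcam did not pass (-0.87). Lymphocyte and neutrophil markers summed to 133 to 232, endothelial markers to 331 to 571, and stellate cell and fibroblast markers to 144 to 450. The part of these differences in the results below was not tested, and in bulk cultures fewer hepatocytes and less RNA per hepatocyte cannot be told apart.

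Most of the enzymes were among the brightest transcripts of these cells. Ranked among complete probe sets by mean intensity, Gnmt and Bhmt both stood at the percentile 99.6, Ahcy at 99.1, Mat1a at 96.9, Cth at 95.3 and Pemt at 92.3. Cbs stood at 85.5 and Bhmt2 at 79.3. These ranks place each probe set among all others and are not levels of one gene set against another.

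**Figure D1:**
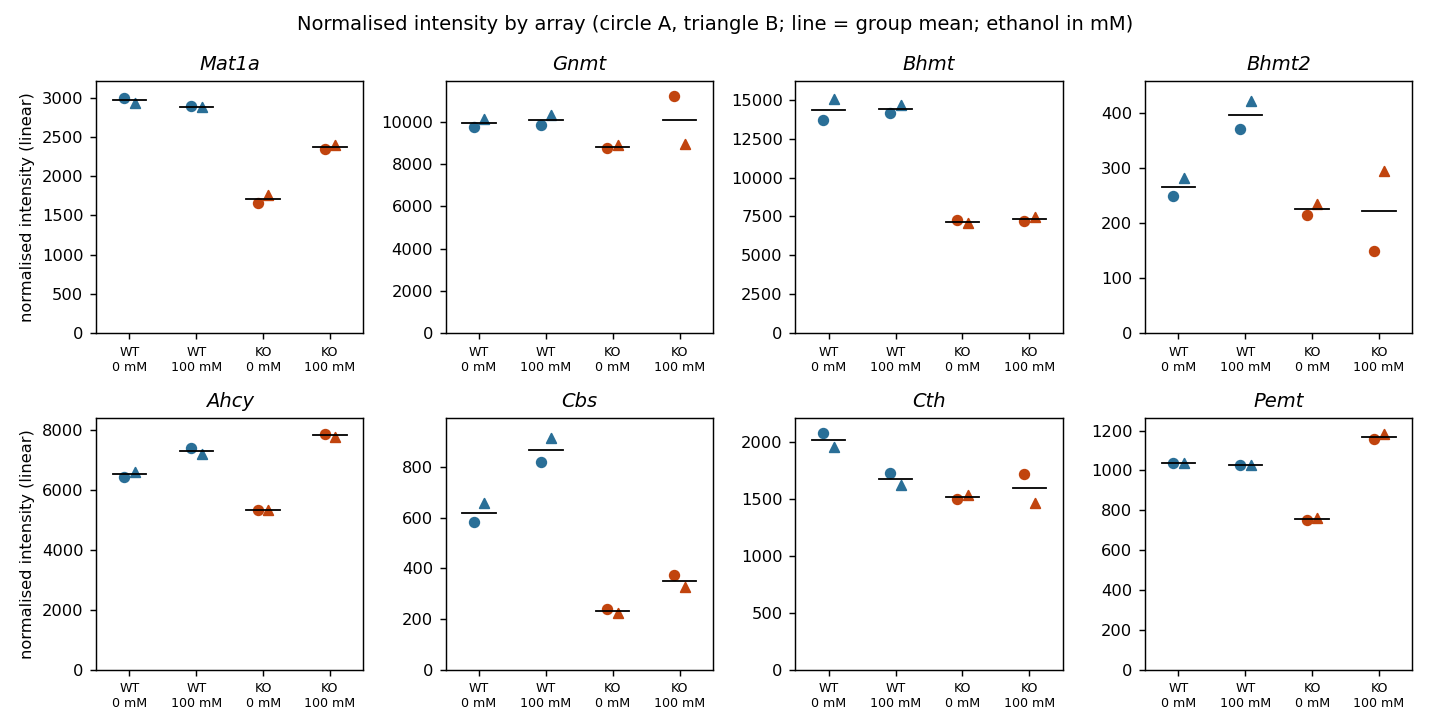
Normalised intensity (vertical axes, linear, from 0) of the leading probe set of the 8 measured genes in the 4 groups (horizontal axes, genotype and ethanol in mM). Circles are A arrays, triangles B arrays and lines group means. The 4 KO arrays of Bhmt sit between 7063 and 7488, below all 4 WT arrays, and Ahcy, Mat1a and Pemt step up from untreated to ethanol KO.

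Without ethanol, the question was whether loss of transglutaminase 2 went with another level of these enzymes. It did for 6 of the 8 genes, all lower in KO (limma, Benjamini-Hochberg adjusted p under 0.05, n = 2 arrays per group), while of all tested probe sets 32.3% were called, 16.9% lower and 15.3% higher. Cbs was 2.55-fold lower, Bhmt 2.00-fold and Mat1a 1.73-fold, while Pemt, Cth and Ahcy were 1.22- to 1.36-fold lower. Gnmt and Bhmt2 did not pass. The median log2 difference over the 8 genes was -0.43, against -0.04 over all tested probe sets. For all 8 genes both KO arrays lay below both WT arrays, which held for 37.4% of all tested probe sets, and the reverse for 33.7%. Both untreated KO arrays were dim as deposited (trimmed means 98.4 and 101), and both untreated WT arrays were brighter (199 and 266). Genotype and array brightness therefore cannot be told apart in this comparison.

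Cbs, cystathionine beta-synthase, joins homocysteine to serine and commits it to transsulfuration. Its leading probe set read 582 and 658 in untreated WT and 242 and 224 in untreated KO. Both KO arrays were below both WT arrays, with a log2 difference of -1.35 ± 0.12 (SE, limma adjusted p = 5e-05, n = 2 per group). The other probe set of Cbs read 298 and 308 in untreated WT and 115 and 99.6 in untreated KO, a difference of -1.37 ± 0.15 (limma adjusted p = 0.00017).

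Cth, cystathionine gamma-lyase, carries out the next step and releases cysteine. It read 2077 and 1956 in untreated WT and 1503 and 1530 in untreated KO. The groups did not overlap and differed by -0.41 ± 0.091 on the log2 scale (limma adjusted p = 0.0078, n = 2 per group). Without untreated WT A the difference was no longer called (-0.36, adjusted p = 0.066), and the call also ended without untreated KO A.

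Bhmt, which transfers a methyl group from betaine to homocysteine, read 13677 and 15043 in untreated WT and 7244 and 7063 in untreated KO. The difference was -1.0 ± 0.066 (limma adjusted p = 8.6e-06, n = 2 per group). Its size depended on the scaling of the arrays: scaled to a common trimmed mean in place of quantile normalisation, it was -0.50 ± 0.086 (limma adjusted p = 0.0018). Bhmt2, a neighbouring paralogue on chromosome 13 that uses S-methylmethionine as methyl donor, read 249 and 283 in untreated WT and 214 and 236 in untreated KO. That difference of -0.22 ± 0.25 did not pass (limma adjusted p = 0.54, n = 2 per group), with a 95% interval from -0.79 to 0.34. The leading probe sets of Bhmt2 and Cbs carry the platform's suffix for probes that can match transcripts of more than 1 gene, so signal from a related transcript cannot be told apart.

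Mat1a, the form of methionine adenosyltransferase that makes SAM in adult liver, read 2993 and 2938 in untreated WT and 1656 and 1760 in untreated KO. It was lower in KO by a log2 difference of -0.79 ± 0.067 (limma adjusted p = 4.1e-05, n = 2 per group). Ahcy, which hydrolyses S-adenosylhomocysteine and so relieves product inhibition of methyltransferases, read 6445 and 6599 in untreated WT and 5330 and 5325 in untreated KO. Its difference was -0.29 ± 0.058 (limma adjusted p = 0.0041, n = 2 per group), but -0.06 ± 0.099 and not called under trimmed-mean scaling (limma adjusted p = 0.71).

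The methyltransferases of the set use SAM for unlike products. Pemt, which methylates phosphatidylethanolamine to phosphatidylcholine for membranes and lipoproteins, read 1036 and 1040 in untreated WT and 753 and 763 in untreated KO. The difference was -0.45 ± 0.077 (limma adjusted p = 0.0020, n = 2 per group). Gnmt, which methylates glycine to sarcosine and disposes of surplus SAM, read 9766 and 10117 in untreated WT and 8753 and 8903 in untreated KO. Its difference of -0.17 ± 0.095 did not pass (limma adjusted p = 0.21, n = 2 per group), and its sign turned under trimmed-mean scaling (0.31).

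On the arrays with a bioC to bioB ratio above 2, which include 1 untreated WT array and both untreated KO arrays, the same 6 genes had log2 differences of -1.44 for Cbs, -1.07 for Bhmt, -0.78 for Mat1a, -0.45 for Pemt, -0.36 for Cth and -0.31 for Ahcy, without a test. Of the 7 tested hepatocyte markers 4 were lower in untreated KO (Hnf4a -1.36, Cps1 -0.61, Apoa1 -0.39 and Fgb -0.18) and 2 higher (Apob 0.46 and Ttr 0.21). Their part in the enzyme differences was not tested. With both B ethanol arrays counted as untreated WT or KO, the calls of Ahcy (-0.16), Pemt (-0.23) and Cth ended, while those of Cbs, Bhmt and Mat1a held. Calls over all tested probe sets fell as well in that fit.

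The sequences just upstream of Cbs, Bhmt and Ahcy are shown because Cbs and Bhmt had the largest KO differences, Ahcy had the smallest called one, and the study title names Sp1, a factor that binds GC boxes. Each is a RefSeq promoter window on GRCm38.p6, from 250 bases before to 50 bases after an annotated start. It is printed 5′ to 3′ on the gene's strand, which is minus for all of them. For Bhmt and Ahcy that start is the start of the gene. The Cbs gene begins further upstream, at chr17:31637233, so its window is set on a start inside the gene. Capitals mark GGGCGG (the GC box) and CCAAT, read on either strand, so that CCGCCC and ATTGG are the same motifs on the other strand. The windows are chr17:31637156-31637455 for Cbs, chr13:93637709-93638008 for Bhmt and chr2:155074448-155074747 for Ahcy.
Cbs: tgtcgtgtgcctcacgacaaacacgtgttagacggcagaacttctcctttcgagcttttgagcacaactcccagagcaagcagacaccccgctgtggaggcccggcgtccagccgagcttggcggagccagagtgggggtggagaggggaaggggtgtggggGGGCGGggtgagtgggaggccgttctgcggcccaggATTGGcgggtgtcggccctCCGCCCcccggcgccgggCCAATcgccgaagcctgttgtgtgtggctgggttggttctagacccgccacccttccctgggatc
Bhmt: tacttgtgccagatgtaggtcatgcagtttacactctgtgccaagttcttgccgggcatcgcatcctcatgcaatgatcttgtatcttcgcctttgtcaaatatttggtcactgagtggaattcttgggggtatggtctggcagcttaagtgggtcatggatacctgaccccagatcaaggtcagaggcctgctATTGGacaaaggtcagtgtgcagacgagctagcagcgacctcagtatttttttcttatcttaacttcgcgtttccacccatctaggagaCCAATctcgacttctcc
Ahcy: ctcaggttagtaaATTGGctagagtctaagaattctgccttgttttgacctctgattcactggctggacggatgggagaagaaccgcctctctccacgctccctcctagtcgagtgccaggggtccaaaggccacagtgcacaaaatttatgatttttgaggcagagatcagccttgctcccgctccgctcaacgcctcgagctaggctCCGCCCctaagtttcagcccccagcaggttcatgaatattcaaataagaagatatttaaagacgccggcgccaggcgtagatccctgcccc
The Cbs window holds 2 GC boxes, starting 88 and 33 bases before the start it is set on, in a stretch of 66.7% G and C. It also holds 2 CCAAT matches, at 52 and 15 bases before that start, which lies inside the gene. The Bhmt window has no GC box and 2 CCAAT matches, 56 bases before and 34 bases after the start, and 48% G and C. The Ahcy window has 1 GC box 41 bases before the start and 1 CCAAT match 237 bases before it.

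Of the 9 listed genes 7 had a window in the RefSeq table, with 8 windows in all because Pemt has more than 1. GGGCGG was found in 4 of these 8 windows (Ahcy, Bhmt2, Cbs and Mat2a) and in 35.7% of all 32851 mouse windows. CCAAT was found in 6 of the 8 and in 37.4% of all windows. It was missing from Bhmt2 and from the Pemt window at chr11:60036956-60037255. TATAAA was found in Mat2a and in 13.6% of all windows. Matches to different motifs did not overlap in these windows, while 1 pair of GC boxes in Mat2a did (starting 106 and 102 bases before the start). A match is a description of letters and not of binding, and these arrays hold no measurement of Sp1 binding.

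**Figure D2:**
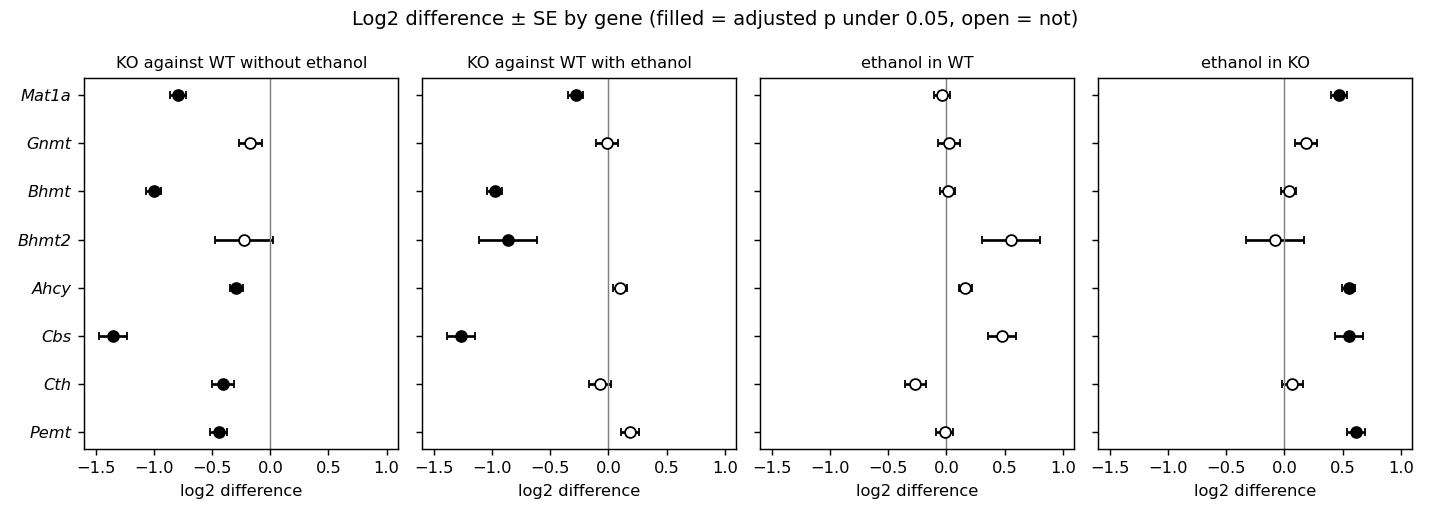
Log2 difference (horizontal axes, points with SE bars) of the leading probe set of each gene in each comparison. Filled points had an adjusted p under 0.05. In the panel of KO against WT without ethanol, 6 filled points lie left of 0, from -1.35 for Cbs to -0.29 for Ahcy.

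With 100 mM ethanol in both genotypes, 4 of the 8 genes were lower in KO than in WT and none was called higher, while of all tested probe sets 29.1% were called, 15.1% lower and 14% higher. They were Cbs (2.41-fold), Bhmt (1.97-fold), Bhmt2 (1.82-fold) and Mat1a (1.22-fold). Ahcy, Pemt, Cth and Gnmt did not pass. The median log2 difference over the 8 genes was -0.18, against -0.05 over all tested probe sets. Both KO arrays lay below both WT arrays for 4 genes and above them for 2, against 33.9% and 27% of all tested probe sets. This comparison shares no array with the one without ethanol.

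Cbs read 820 and 913 in ethanol WT, against 374 and 327 in ethanol KO, a difference of -1.27 ± 0.12 (limma adjusted p = 7.4e-05, n = 2 per group). Its other probe set read 327 and 308 in ethanol WT, against 198 and 161 in ethanol KO, a difference of -0.78 ± 0.15 (limma adjusted p = 0.0044). Both probe sets thus placed the KO arrays below the WT arrays, by unequal amounts.

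Bhmt read 14185 and 14697 in ethanol WT, against 7177 and 7488 in ethanol KO. The difference of -0.98 ± 0.066 (limma adjusted p = 9.5e-06, n = 2 per group) was -0.85 under trimmed-mean scaling. The deposited Bhmt values were 14274 and 16954 in ethanol WT, but 3933 on the dim array ethanol KO A and 10820 on ethanol KO B.

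Mat1a read 2890 and 2886 in ethanol WT, against 2351 and 2393 in ethanol KO, a difference of -0.28 ± 0.067 (limma adjusted p = 0.012, n = 2 per group). The call ended without ethanol WT A (-0.29, adjusted p = 0.070) and without ethanol WT B. Bhmt2 read 372 and 423 in ethanol WT, against 149 and 296 in ethanol KO. The ethanol KO arrays differed widely from each other, though both lay below the WT arrays, and the difference was -0.86 ± 0.25 (limma adjusted p = 0.028). Over the 8 fits that each left out 1 array it ran from -1.32 without ethanol KO B to -0.41 without ethanol KO A, and the call ended without ethanol KO A, ethanol WT A or ethanol WT B. Its other probe set read 176 and 220 in ethanol WT, against 82.5 and 135 in ethanol KO, a difference of -0.80 ± 0.22 (limma adjusted p = 0.025).

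The remaining enzymes did not pass. Ahcy read 7401 and 7196 in ethanol WT, against 7881 and 7765 in ethanol KO, and Pemt read 1026 and 1027 in ethanol WT, against 1158 and 1183 in ethanol KO. For both genes the KO arrays lay above the WT arrays, with differences of 0.10 ± 0.058 for Ahcy (limma adjusted p = 0.23) and 0.19 ± 0.077 for Pemt (limma adjusted p = 0.10). Cth differed by -0.07 (95% interval -0.28 to 0.13) and Gnmt by -0.01 (95% interval -0.22 to 0.20). For the called genes, the A arrays, with ratios of bioC to bioB under 2, gave -1.10 for Cbs, -0.98 for Bhmt, -1.23 for Bhmt2 and -0.30 for Mat1a. The B arrays gave -1.44, -0.97, -0.49 and -0.27 in the same order, without a test. With both B ethanol arrays counted as untreated, the call of Bhmt held and those of Cbs, Bhmt2 and Mat1a ended. Calls over all tested probe sets fell steeply too in that fit. Of the 7 hepatocyte markers 3 were lower in ethanol KO than in ethanol WT (Hnf4a -1.08, Cps1 -0.64 and Apoa1 -0.34) and none was called higher.

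In WT cells, none of the 8 genes was called between 0 and 100 mM ethanol, where 5.58% of all tested probe sets were (limma adjusted p under 0.05, 1.67% higher and 3.91% lower). Cbs, Cth and Ahcy had an unadjusted limma p under 0.05. The share of all tested probe sets at that looser threshold was not computed, and the 5.58% does not stand for it. The median log2 difference over the 8 genes was 0.02, against 0.01 over all tested probe sets. The ethanol arrays lay above the untreated arrays for 3 genes and below them for 3, against 27.7% and 25.4% of all tested probe sets.

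Cbs read 582 and 658 without ethanol and 820 and 913 with it, a difference of 0.47 ± 0.12 (limma adjusted p = 0.053, 95% interval 0.21 to 0.74, n = 2 per group). Both ethanol arrays lay above both untreated arrays on this probe set, while the other probe set differed by 0.07 ± 0.15 (limma adjusted p = 0.89). Bhmt2 read 249 and 283 without and 372 and 423 with ethanol, a difference of 0.55 ± 0.25 (limma adjusted p = 0.27).

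Ahcy read 6445 and 6599 without and 7401 and 7196 with ethanol, a difference of 0.16 ± 0.058 (limma adjusted p = 0.16, n = 2 per group). Cth read 2077 and 1956 without and 1726 and 1619 with ethanol, a difference of -0.27 ± 0.091 (limma adjusted p = 0.14, n = 2 per group). In both genes the groups did not overlap, in opposite directions. Mat1a (95% interval -0.19 to 0.11), Pemt (-0.19 to 0.16), Bhmt (-0.14 to 0.16) and Gnmt (-0.19 to 0.24) had intervals that span 0. These counts rested partly on the spread in ethanol KO, which enters the pooled error. Without ethanol KO A, and likewise without ethanol KO B, Ahcy, Bhmt2, Cbs and Cth were called. Calls over all tested probe sets for ethanol in WT also moved widely when single arrays were left out. Within the A arrays and within the B arrays, Cbs differed by 0.48 and 0.46, Cth by -0.27 and -0.27 and Ahcy by 0.20 and 0.12.

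In KO cells, ethanol went with higher levels of 4 of the 8 genes and a lower level of none, while of all tested probe sets 22.2% were called, 11.4% higher and 10.8% lower. Pemt rose 1.53-fold, Ahcy 1.47-fold, Cbs 1.47-fold and Mat1a 1.39-fold. Bhmt, Gnmt, Cth and Bhmt2 did not pass. The median log2 difference over the 8 genes was 0.33, against -0.01 over all tested probe sets. The ethanol arrays lay above the untreated arrays for 5 genes and below them for none, against 29.5% and 30.5% of all tested probe sets. This comparison shares the untreated KO arrays with that of KO against WT without ethanol.

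Ahcy read 5330 and 5325 in untreated KO, against 7881 and 7765 in ethanol KO, a difference of 0.55 ± 0.058 (limma adjusted p = 0.00053, n = 2 per group). Under trimmed-mean scaling the difference was 0.35 (limma adjusted p = 0.030), a move of over 1.5 times. Pemt read 753 and 763 in untreated KO, against 1158 and 1183 in ethanol KO, a difference of 0.62 ± 0.077 (limma adjusted p = 0.0010). For both genes the ethanol KO arrays were the highest of all 8 arrays.

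Mat1a read 1656 and 1760 in untreated KO, against 2351 and 2393 in ethanol KO, a difference of 0.47 ± 0.067 (limma adjusted p = 0.0018, n = 2 per group). The ethanol KO arrays lay between the untreated KO arrays and the WT arrays. Cbs read 242 and 224 in untreated KO, against 374 and 327 in ethanol KO, a difference of 0.56 ± 0.12 (limma adjusted p = 0.011, n = 2 per group). All 4 KO arrays of Cbs stayed below the WT arrays, and its call ended without untreated KO B (0.46, adjusted p = 0.080). The other probe set of Cbs read 115 and 99.6 in untreated KO, against 198 and 161 in ethanol KO, a difference of 0.66 ± 0.15 (limma adjusted p = 0.015).

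Bhmt read 7244 and 7063 in untreated KO, against 7177 and 7488 in ethanol KO, so the groups overlapped at a difference of 0.04 ± 0.066 (limma adjusted p = 0.73, 95% interval -0.11 to 0.18). This value turned with the scaling: under trimmed-mean scaling Bhmt was called lower, at -0.33 ± 0.086 (limma adjusted p = 0.022). Gnmt read 8753 and 8903 in untreated KO, against 11240 and 8943 in ethanol KO, a difference of 0.18 ± 0.095 (limma adjusted p = 0.20). Its ethanol KO A array stood alone above the rest, and without ethanol KO B, which leaves that array as the group, Gnmt was called (0.35, adjusted p = 0.0014).

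Cth read 1503 and 1530 in untreated KO, against 1723 and 1464 in ethanol KO, and the groups overlapped (0.07 ± 0.091, limma adjusted p = 0.64). Bhmt2 read 214 and 236 in untreated KO, against 149 and 296 in ethanol KO, where 1 array lay below and 1 above the untreated pair (-0.08 ± 0.25, limma adjusted p = 0.84). With both B ethanol arrays counted as untreated, as their treatment text reads, each ethanol group is 1 array. The differences for ethanol in KO were then 0.50 for Cbs, 0.39 for Pemt, 0.38 for Ahcy and 0.30 for Mat1a, and their calls ended. Calls over all tested probe sets fell steeply too, so the loss was not particular to these enzymes. With both B ethanol arrays left out, each ethanol group is 1 array, assumed to vary like the other groups. Gnmt then differed by 0.35 and Bhmt2 by -0.54 with ethanol in KO. On the arrays with a bioC to bioB ratio above 2, Pemt differed by 0.63, Ahcy by 0.54, Mat1a by 0.48 and Cbs by 0.46, without a test. Some markers were called in this comparison too, where 22.2% of all tested probe sets were. Of 7 hepatocyte markers Hnf4a (0.74) and Cps1 (0.22) rose, of 6 tested macrophage markers Cd68 (0.48) and Lyz2 (0.72) rose (median 0.39), and of 3 tested stellate cell and fibroblast markers Des (1.28) rose. The stellate sum was 144 and 154 in untreated KO, 450 on ethanol KO A and 166 on ethanol KO B. Of 2 tested cholangiocyte markers Sox9 fell by 0.44 on the log2 scale. None of 6 tested endothelial and 2 tested lymphocyte and neutrophil markers was called. The part of these markers in the enzyme differences was not tested.

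**Figure D3:**
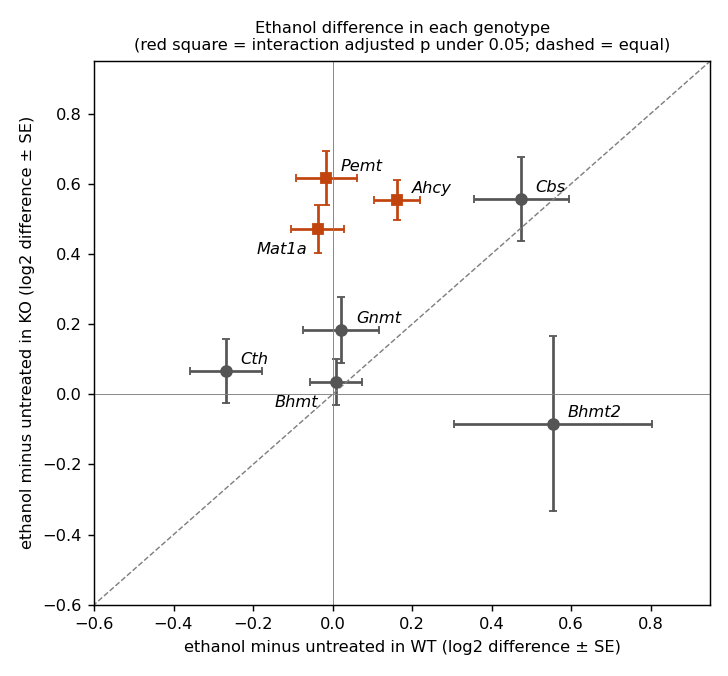
Log2 ethanol difference in KO (vertical axis) against that in WT (horizontal axis), 1 point per gene with SE bars. The dashed line marks equal differences and red squares the genes with an interaction adjusted p under 0.05. Pemt, Mat1a and Ahcy lie above the line, while Cbs lies near it at 0.47 in WT and 0.56 in KO.

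Whether ethanol acted alike in both genotypes was tested as the ethanol difference in KO minus that in WT. It was above 0 for 3 of the 8 genes and below 0 for none at an adjusted p under 0.05, while of all tested probe sets 5.35% were called, 3.57% above 0 and 1.78% below. Pemt differed by 0.63 ± 0.11 (limma adjusted p = 0.013), Mat1a by 0.51 ± 0.095 (limma adjusted p = 0.018) and Ahcy by 0.39 ± 0.081 (limma adjusted p = 0.027), with n = 2 arrays per group. In WT their ethanol differences were -0.02, -0.04 and 0.16. The leading probe set of Cbs gave 0.08 ± 0.17 (limma adjusted p = 0.82, 95% interval -0.30 to 0.46), and its other probe set gave 0.59 ± 0.21 (limma adjusted p = 0.15).

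The interaction of Cth was 0.33 ± 0.13 (limma adjusted p = 0.17) and that of Bhmt2 -0.64 ± 0.35 (limma adjusted p = 0.32), neither of which passed. The calls of Pemt, Mat1a and Ahcy held in 12, 11 and 10 of 20 alternatives, against 20 of 21 for each of their ethanol calls in KO. Each of the 3 interaction calls ended on leaving out any single array of untreated WT, ethanol WT or untreated KO, with adjusted p up to 0.13 for Ahcy, 0.11 for Mat1a and 0.074 for Pemt. Over the 8 fits the values stayed between 0.62 and 0.65 for Pemt, 0.47 and 0.55 for Mat1a and 0.37 and 0.41 for Ahcy. Under trimmed-mean scaling Pemt kept its call (0.59), while Mat1a gave 0.43 (limma adjusted p = 0.063) and Ahcy 0.19 (limma adjusted p = 0.45). With both B ethanol arrays counted as untreated, which leaves 1 array in each ethanol group, the values were 0.40 for Pemt, 0.32 for Mat1a and 0.25 for Ahcy. Their calls ended, and interaction calls over all tested probe sets were lost as well. The latter also moved widely on leaving out single arrays.

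**Figure D4:**
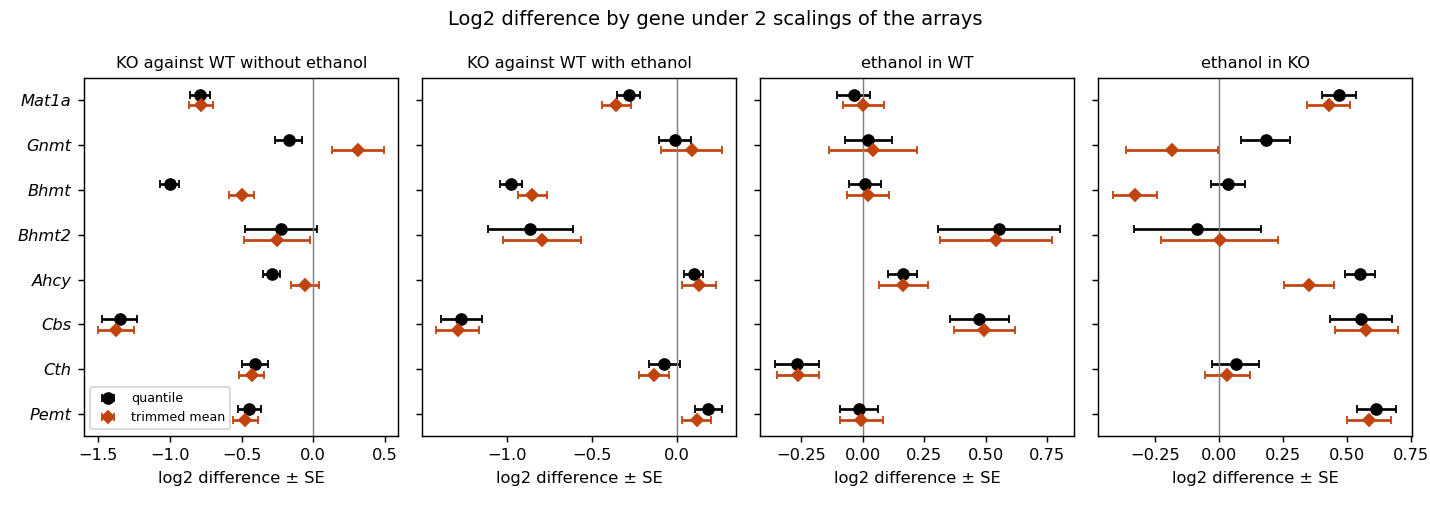
Log2 difference ± SE (horizontal axes) of each gene under quantile normalisation and under scaling to a common trimmed mean, in the comparisons shown above each panel. Bhmt moves from -1.0 to -0.50 in KO against WT without ethanol, while Cbs and Mat1a change little (-1.35 to -1.37 and -0.79 to -0.78).

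Compared by shape over the 8 arrays, Ahcy and Pemt were the most alike pair of the set, with a root mean square distance of 0.071 between their centred log2 values. Gnmt and Cth followed at 0.15, and Gnmt and Cbs were the farthest apart at 0.65. The neighbours Bhmt and Bhmt2 were 0.37 apart, and Cbs and Cth, which catalyse consecutive steps, 0.63. Among 10740 compared genes the nearest to Cbs was the hepatocyte marker Hnf4a (0.089), so its differences given above resemble those of Cbs and are no separate observation, followed by the organic anion transporter gene Slc22a7 (0.10). The nearest were Exosc4 to Mat1a (0.037), Abt1 to Gnmt (0.032), Itih5 to Bhmt (0.062), Riox1 to Bhmt2 (0.12), Slc52a3 to Ahcy (0.040), Litaf to Cth (0.057) and Hgfac to Pemt (0.056). With 8 arrays in 4 groups many genes share such a shape, and nothing follows from it about function.

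Lists of neighbouring pathways were read beside the enzymes. Of 10 tested genes of cysteine, taurine and glutathione metabolism, which lies downstream of Cbs and Cth, 8 were lower and 1 higher in untreated KO, with a median log2 difference of -0.56. Csad, which makes the taurine precursor hypotaurine, differed by -1.87 ± 0.14 (limma adjusted p = 2.3e-05), and Ethe1, a mitochondrial sulfur dioxygenase, by -1.16 ± 0.094 (limma adjusted p = 3e-05). Gclc and Gss, which catalyse the consecutive steps of glutathione synthesis, differed by -0.91 ± 0.11 and -0.63 ± 0.092. With ethanol in KO 6 rose and none fell (median 0.42), among them Tst by 0.50 ± 0.078, Ethe1 by 0.48 ± 0.094 and Cdo1, the cysteine dioxygenase, by 0.45 ± 0.085. With ethanol in both genotypes 7 were lower and 1 higher in KO, and in WT ethanol went with 2 higher (Gss 0.45, Tst 0.32). The 6 higher with ethanol in KO became 2 without untreated KO A and 2 without untreated KO B.

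Of 15 tested folate pathway genes, which supply the other route of homocysteine remethylation, 7 were lower and none higher in untreated KO (median -0.31). Gldc, of the glycine cleavage system, differed by -1.29 ± 0.12 (limma adjusted p = 8.1e-05), Mthfd1 by -1.08 ± 0.15 and Aldh1l1, which oxidises formyl-tetrahydrofolate, by -0.70 ± 0.073. With ethanol in KO 3 rose and none fell, a share near the 22.2% called among all tested probe sets: Aldh1l1 by 0.87 ± 0.073, Ftcd by 0.41 ± 0.089 and Shmt2 by 0.36 ± 0.095. With ethanol in both genotypes 4 were lower and 3 higher in KO, and Aldh1l1 rose with ethanol in WT too (0.33 ± 0.073). Without untreated KO A, the 3 higher with ethanol in KO became 1.

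Of 12 tested choline and betaine genes, which feed Bhmt and run beside Pemt, 3 were higher and 4 lower in untreated KO (median 0.06). Chka, the choline kinase of the route to phosphatidylcholine that does not need Pemt, differed by -1.28 ± 0.10 (limma adjusted p = 2.6e-05), and the choline transporter gene Slc44a1 by 0.63 ± 0.078. With ethanol in KO 4 rose and 1 fell, with Chka at 1.20 ± 0.10 and Sardh, the sarcosine dehydrogenase that takes up the product of Gnmt, at 1.12 ± 0.13. The interaction of Chka was 1.23 ± 0.14 (limma adjusted p = 0.0031) and that of Sardh 1.03. Without untreated KO A, 2 rose and 1 fell with ethanol in KO.

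Of 15 tested methyltransferases outside the set, 2 were higher and 5 lower in untreated KO (median -0.05), among them Nnmt, the nicotinamide methyltransferase, at -1.17 ± 0.094 and Inmt at 1.02 ± 0.075. With ethanol in KO 1 rose and 2 fell, a share near the 22.2% called among all tested probe sets. Gamt, which makes creatine, had the smallest adjusted p at 0.85 ± 0.098. Of 8 tested genes of methionine salvage and polyamine synthesis none was higher and 2 were lower in untreated KO. That share lies below the 32.3% called among all tested probe sets. The 2 were Srm, the spermidine synthase, at -0.91 ± 0.069 and Mri1 at -0.50 ± 0.086. With ethanol in KO 3 of the 8 rose and 1 fell, with Srm at 0.57 ± 0.069. Of 6 tested cofactor and regulatory partners 2 were higher and none lower in untreated KO, a share near the 32.3% of all tested probe sets. They were Ahcyl2 at 0.58 and Ahcyl1 at 0.34, both relatives of Ahcy. With ethanol in KO 1 rose (Cd320, 0.83) and 1 fell (Ahcyl1, -0.34). The ethanol counts of these 3 lists were unsteady: without untreated KO A or untreated KO B, 1 salvage and polyamine gene and 1 methyltransferase were called, and without ethanol KO B 6 methyltransferases were. Without untreated WT B the methyltransferases called in untreated KO were 4 in place of 7, and the partners were 0 to 1 without untreated WT A, untreated WT B or untreated KO B. With both B ethanol arrays counted as untreated, the calls on the 6 lists for ethanol in KO ended, while those over all tested probe sets fell steeply. Calls over all tested probe sets also moved widely in each comparison when single arrays were left out. The background shares given above for each comparison apply to the list counts with all arrays kept and grouped by title.

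**Figure D5:**
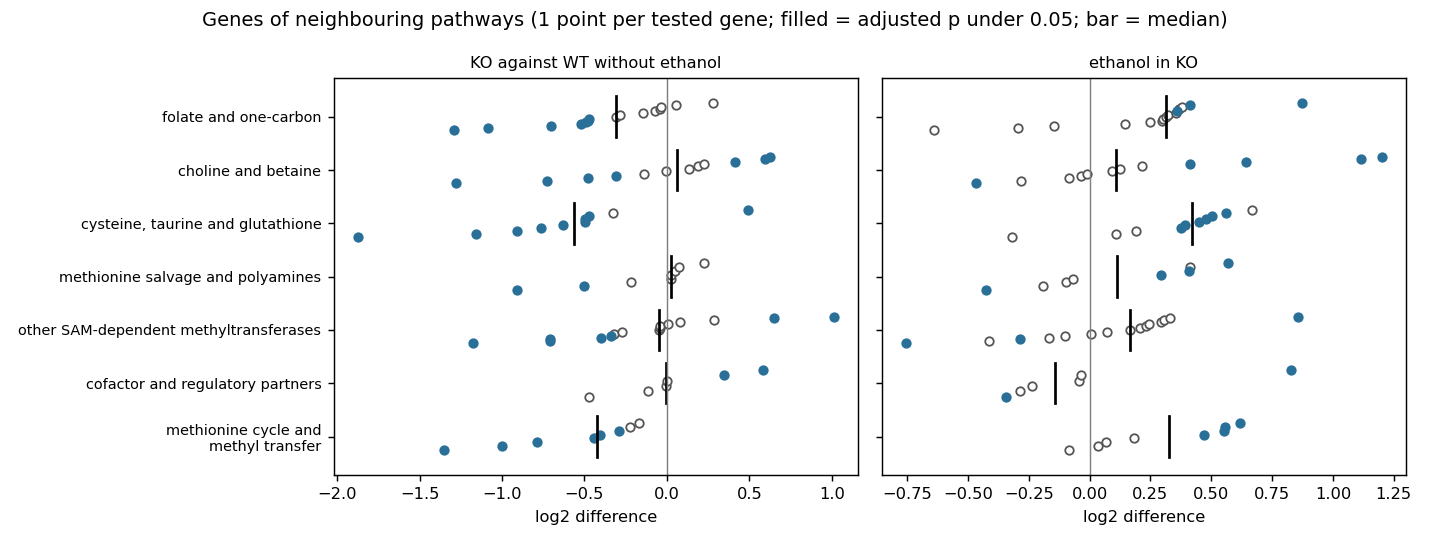
Log2 difference (horizontal axes) of the tested genes of 6 neighbouring pathway lists and of the methionine cycle set itself, 1 point per gene, filled where the adjusted p was under 0.05, with a bar at the median of each list. For cysteine, taurine and glutathione the median is -0.56 in KO against WT without ethanol and 0.42 with ethanol in KO.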

How the data were processed

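The authors deposited a linear intensity for each of 45101 probe sets on each array. The software and scaling behind them are not given in the sources used. On ethanol WT B 5410 values were unusable, 5403 of them exact zeros, and those probe sets were left out, as were 64 control probe sets. The remaining 39627 were quantile normalised and transformed as log2(intensity + 16), which understates changes of dim genes. The 50% with the highest mean, 19814, were tested with limma 3.58.1 in R 4.3.3 (4 group means over 8 arrays, intensity trend in the variance prior, 4 residual and 5.43 prior degrees of freedom). Benjamini-Hochberg adjustment of p-values ran over all tested probe sets, separately for 5 contrasts, and a call is an adjusted p under 0.05. Errors are standard errors of log2 differences. The fit was tested on simulated data with independent noise in each probe set and no differences in brightness between arrays. That test therefore does not bear on calls that change with single arrays or with the scaling.

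Probe sets were named from the platform's annotation: 34958 had 1 symbol, 932 several and 9211 none, and 34754 matched the RefSeq gene table. Every enzyme of the set is named. From each pathway list up to 4 called genes per contrast with the smallest adjusted p could be named, and the 2 genes nearest in shape to each enzyme. The enzymes, lists and tests were chosen with earlier results of these data known. Groups follow titles and source names. The number of arrays limits the precision. A and B are letters only: their deviations correlated at 0.022 to 0.30 between groups, so the replicate letter was a block only in an alternative. Other alternatives changed the offset, filter, scaling, variance prior, probe sets per gene, groups in the fit, spike-in ratio as a term, and the arrays kept.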

Additional observations from a re-analysis of the deposited data

Results flagged for a closer look

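The test of the ethanol difference in KO against that in WT passed for 3 of the 8 enzymes, each above 0. For Pemt, the difference of the log2 differences was 0.63 (limma adjusted p = 0.013, n = 2 arrays per group), with 0.62 in KO and -0.02 in WT. For Mat1a it was 0.51 (limma adjusted p = 0.018), with 0.47 in KO and -0.04 in WT. For Ahcy it was 0.39 (limma adjusted p = 0.027), with 0.55 in KO and 0.16 in WT. On the arrays with a bioC to bioB ratio above 2 the values were 0.65, 0.51 and 0.42, without a test. The calls were not stable. All 3 ended without any single array of untreated WT, ethanol WT or untreated KO, and without a variance trend. They also ended with both B ethanol arrays counted as untreated. In refits with arrays left out or counted as untreated, calls over all tested probe sets moved widely too. Under trimmed-mean scaling the values were 0.59 for Pemt, 0.43 for Mat1a (limma adjusted p = 0.063) and 0.19 for Ahcy (limma adjusted p = 0.45). No group has enough arrays to look for single arrays far from the others.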

How the results depend on the processing

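Of 1050 enzyme values under an alternative, 912 kept direction and side of the threshold, 66 lost a call, 35 gained one and 37 had another sign, of which 34 were called in neither fit. The enzymes called were 0 for ethanol in WT, 4 for ethanol in KO, 6 for KO against WT without ethanol, 4 with ethanol and 3 for the interaction, and the replicate block left all of them as they were (0, 4, 6, 4 and 3). For ethanol in WT, 1 was called with an offset of 64, with the top 30% of probe sets or with the spike-in ratio as a term, and 2 with the compared groups alone or without the 3 dim arrays. For KO against WT with ethanol, 2 were called without a variance trend or with the compared groups alone, and 1 if both B ethanol arrays count as untreated. For the interaction, 1 was called under trimmed-mean scaling, 0 without a variance trend, 6 (5 above and 1 below 0) with the B ethanol arrays left out, which leaves 1 array in each ethanol group, and 0 with them counted as untreated, which also gave 0 for ethanol in KO. Leaving out each array in turn leaves 1 array in a group. The enzyme counts then moved in every comparison, and calls over all tested probe sets moved widely too. Signs turned under trimmed-mean scaling for Mat1a with ethanol in WT (0.0011), Bhmt2 (0.0025), Bhmt (-0.33, called) and Gnmt (-0.18) with ethanol in KO, Gnmt in KO against WT without (0.31) and with ethanol (0.087), and the interactions of Gnmt (-0.23) and Bhmt (-0.35). That scaling moved the median of all tested probe sets from -0.05 to 0.06 in KO against WT with ethanol, so Gnmt there lies 0.02 above it. With probe sets of 1 unusable value kept, Gnmt (-0.010) and the other Cbs probe set (-0.047) turned with ethanol in WT, and Gnmt (0.022) and Cth (0.011) in KO against WT with ethanol. With the spike-in term, Bhmt2 (0.13) and Cth (-0.0022) turned with ethanol in KO. With the B ethanol arrays left out, Gnmt (-0.012) and Bhmt (-0.016) turned with ethanol in WT and Gnmt (0.19, called) in KO against WT with ethanol. Counted as untreated, they gave -0.030 and -0.028 for Gnmt and Bhmt with ethanol in WT, -0.017 for Bhmt with ethanol in KO and 0.19 for Gnmt in KO against WT with ethanol. Leaving out each array in turn, values crossed 0 for Gnmt (-0.012 to 0.056) and Bhmt (-0.059 to 0.078) with ethanol in WT, Bhmt2 (-0.54 to 0.37, other probe set -0.61 to 0.010) and Cth (-0.050 to 0.18) with ethanol in KO, the other Bhmt2 probe set without ethanol (-0.16 to 0.011), Gnmt (-0.17 to 0.15, called at both ends) and Cth (-0.19 to 0.043) in KO against WT with ethanol, and the interactions of Cbs (-0.012 to 0.18), Bhmt (-0.043 to 0.094) and Gnmt (-0.0034 to 0.33). The causes were not tested. Of 636 counts on the 6 pathway lists, 186 moved by more than 1.5 times, while counts on the marker lists were not taken under the alternatives.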
